A study of Mus musculus with 8 samples.

Results

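The tissue around the muscle of the embryonic mouse diaphragm was compared between 1 CaV1.1 knockout (CaV1.1 KO) section and 3 control sections at day E14.5 of embryonic development. Of 3264 spots under tissue in these 4 sections, 959 lay outside muscle, 363 of them in the CaV1.1 KO and 596 in the controls. The spots were selected on measured values: each held at least 1000 unique molecular identifiers (UMIs), and its mean of ln(1 + UMIs per 10000) over 9 muscle genes (Acta1, Actn2, Des, Myl1, Mylpf, Neb, Ryr1, Tnnt3 and Ttn) was at or below the section's own Otsu cut, the value that best splits a section's spots into a low and a high class. Spots with more than 0.5% of their UMIs from Alb, Ahsg, Cyp11a1 and Star, genes of liver and adrenal gland, were dropped. UMIs were then summed over the spots of a section, so a group was 3 sums or 1 sum.

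The study mapped transcripts in horizontal, formaldehyde-fixed and paraffin-embedded sections of 5 µm with the Visium platform, in which probes for 19465 genes are counted on spots 55 µm wide and 100 µm apart. A spot is a small region that can hold several cell types, not a cell. The whole series holds 8 sections, of E14.5 and E18.5 controls, of a CaV1.1 KO at each stage and of a muscle-specific β-catenin knockout at E18.5. The CaV1.1 KO embryos (CaV1.1 -/-, titled dysgenic) came from crosses of CaV1.1+/- mice, some of which also carried floxed β-catenin alleles with a skeletal actin Cre. Controls kept at least 1 functional allele of CaV1.1 and of β-catenin, so they need not all have been wild type. Neither litter nor sex was given in the labels. With 1 CaV1.1 KO section, its spread was assumed to equal that of the controls, and genotype cannot be told apart from that embryo or its plane of section.

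CaV1.1 is the calcium channel and voltage sensor of skeletal muscle that couples excitation to contraction, and its gene Cacna1s is expressed in muscle fibers. The tissue outside muscle in the diaphragm is the central tendon into which the fibers insert, connective tissue with its fibroblasts, vessels, nerves, and the mesothelium that lines both faces. Tendon cells are specified by transcription factors such as Scx and Mkx and build a matrix of fibrillar collagens, small proteoglycans and glycoproteins. The comparison asks how this surrounding tissue differs in an embryo without CaV1.1.

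Cacna1s stood at 18.9, 18.3 and 22.8 CPM (UMIs scaled to a sum of 1000000 per section and region) in the muscle spots of controls 1, 2 and 3 and at 16.2 in those of the CaV1.1 KO. Outside muscle it was 7.92, 4.17 and 5.22 CPM in the controls and 3.57 in the CaV1.1 KO, a log2 fold change of -0.75 ± 0.53 (SE) with an adjusted p of 0.744. At E18.5 its muscle level was 61.2 and 63.9 CPM in the controls, 31.4 in the CaV1.1 KO and 59.6 in the β-catenin knockout. The transcript was thus counted in every section, and at E14.5 the CaV1.1 KO lay below the 3 controls in both regions without passing the test in either (adjusted p of 0.326 in muscle). A mutant allele can still be transcribed and probed, so this level does not check the label.

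The sections differed in depth and in what else they held. The UMIs summed outside muscle were 8711015, 8624198 and 1150475 in controls 1, 2 and 3, from 257, 244 and 95 spots, and 11193573 in the CaV1.1 KO, with medians of 18062, 35773.5 and 12596 UMIs a spot against 8237. The Otsu cut was 2.54, 2.19 and 2.27 in the controls and 1.85 in the CaV1.1 KO, where the last spot inside the cut scored 1.847 and the first beyond it 1.850. In the CaV1.1 KO, 75 of the spots outside muscle lay apart from its largest piece of tissue, against 1 in each control. Control 1 had the adrenal genes (summed list 628 CPM, against 6, 6 and 4 in controls 2 and 3 and the CaV1.1 KO) and few erythroid transcripts (232 CPM, against 4869, 4981 and 1857). The Y-linked genes summed to 257 and 266 CPM in controls 2 and 3 to 0 in control 1 and to 0.357 in the CaV1.1 KO. The genes of the spot rule are a description only: Ttn, the giant sarcomere protein, was at 1236, 721 and 974 CPM in the controls and 555 in the CaV1.1 KO outside muscle, and the skeletal actin Acta1 at 1881, 1098 and 1206 against 499.

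One area of the CaV1.1 KO section stood apart. Nkx2-1, a transcription factor of lung and thyroid epithelium, was listed at 0 in all 3 controls and at 22.5 CPM in the CaV1.1 KO, and Sftpc, which encodes a surfactant protein of lung epithelium, at 0.804, 0 and 0 against 32.2. In that section 22 spots held at least 2 UMIs of the pair, against 1, 0 and 0 in the controls. With their neighbors they made up 40 spots and 22.4% of its UMIs outside muscle (5 spots and 5.44% in control 1), so the list counts and the values it moved most are given with and without this area. Within the area Nkx2-1 was at 99.7 CPM and outside it at 0.230. The area was selected on this pair of genes, so that contrast is a description only. In control 1 the 5 spots held Sftpc (8.44 CPM) and no Nkx2-1, and leaving them out took its sum to 8237130 UMIs. At a stricter limit of 0.1% for the liver and adrenal genes, leaving them out changed that sum only from 7797190 to 7774522. Most of their UMIs thus lay in spots above that limit. Values without the area leave out these control 1 spots as well.

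**Figure D1:**
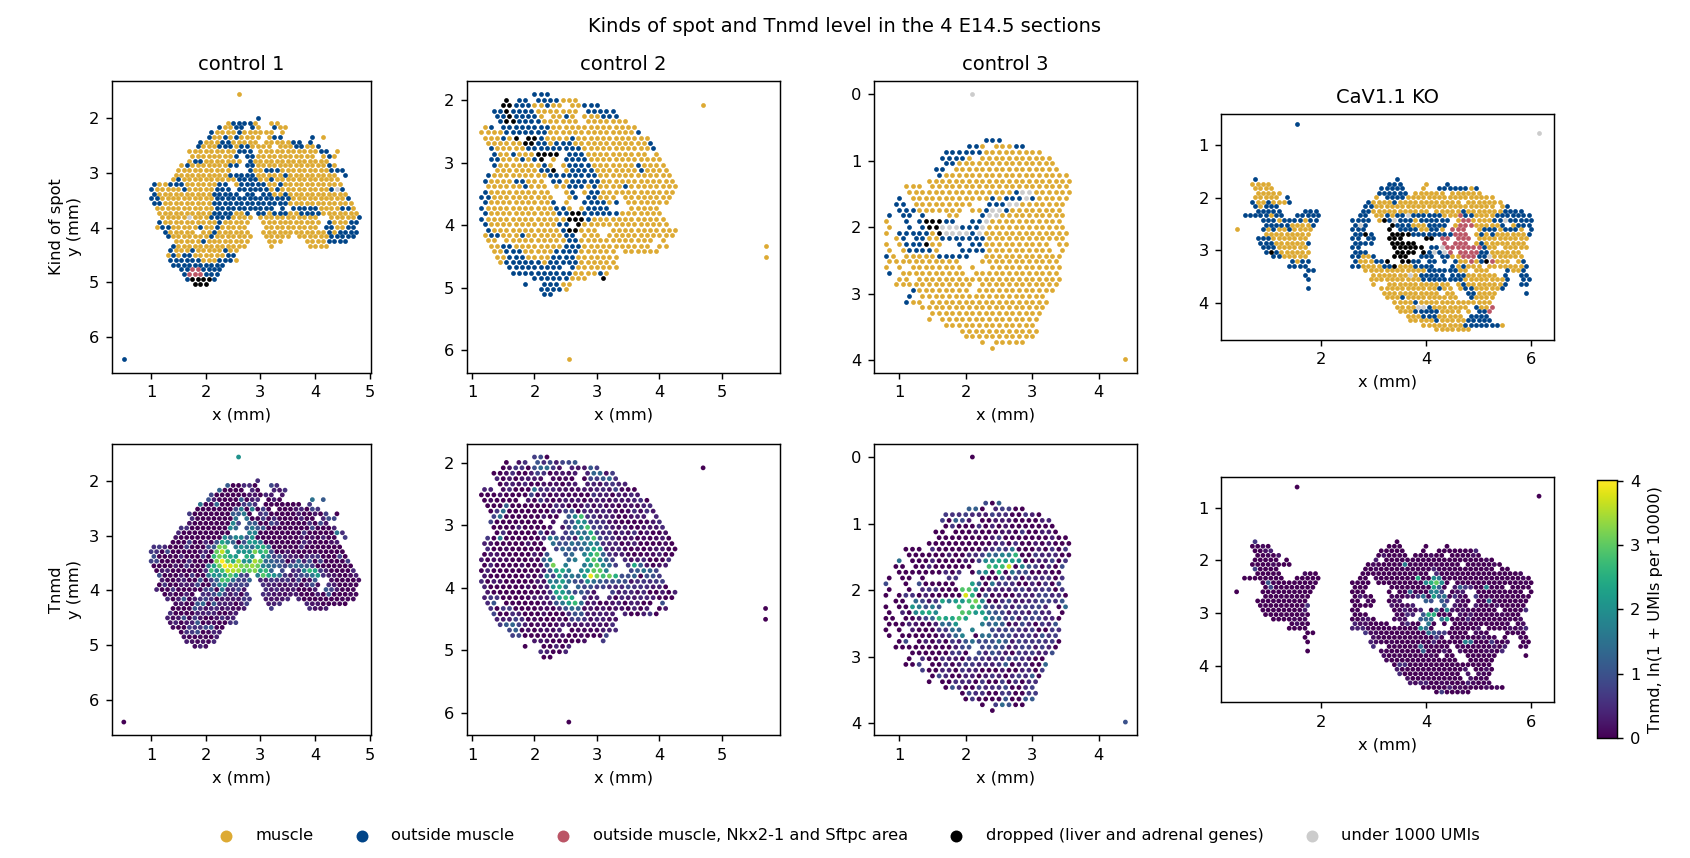
Spots of the 4 E14.5 sections at their position in mm, colored by kind of spot (top row) and by Tnmd level as ln(1 + UMIs per 10000) (bottom row). The 363 CaV1.1 KO spots outside muscle include a detached piece on the left and the Nkx2-1 and Sftpc area of 40 spots on the right, and Tnmd is bright in the middle of each control and dim in the CaV1.1 KO.

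Across the tissue outside muscle no gene passed an adjusted p of 0.05 in edgeR's quasi-likelihood test (0 of 13785 tested, 0%). The 13 genes of the spot rule are left out of this and every later count. The lowest adjusted p was 0.0672, for Epcam, an epithelial adhesion gene at 4.02, 3.59 and 6.08 CPM in the controls and 54.0 in the CaV1.1 KO, whose log2 fold change of 3.67 was 0.71 without the Nkx2-1 and Sftpc area. At an unadjusted p under 0.05, 559 genes (4.06%) were higher and 649 (4.71%) lower. Without the Nkx2-1 and Sftpc area, 450 were higher and 592 lower of 13694 genes. Every list count below is to be read beside these, and 1 or 2 members of a list are near them. The CaV1.1 KO lay above all 3 controls in 32.9% of the genes and below all 3 in 23.3%. DESeq2 called 43 genes higher and 113 lower on the same sums, and edgeR called 607 once control 1 was left out (242 higher, 365 lower). The residual degrees of freedom were 2, so 1 section could decide a call. Control 1 was the only E14.5 control without Y-linked transcripts, and the CaV1.1 KO had almost none. Without control 1, genotype thus cannot be told apart from the presence of these transcripts.

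A second weighting was added after these values were seen. Here each spot was thinned to 1000 UMIs before summing, so that a deep spot counted no more than a shallow one; the 10 deepest spots had held 18.7, 9.16 and 21.8% of the UMIs in the controls and 15.1% in the CaV1.1 KO. Of 7497 genes with enough counts, 26 (0.347%) were then called lower and 2 (0.0267%) higher at an adjusted p under 0.05. The 26 included the tendon list members Tnmd, Thbs4, Tnc, Postn, Col12a1 and Col1a1, the secreted proteins C1qtnf3, Angptl1 and Angptl2, the collagen VI chain Col6a3, the homeobox gene Meox2, the ligand Wnt5a, the muscle genes Ckm and Ldb3, the immediate early gene Jun, and the Y-linked Ddx3y and Eif2s3y, which control 1 also lacked. The 2 higher genes were Mgp and Arhgdib. The thinned sums held 257000, 244000 and 95000 UMIs in the controls and 363000 in the CaV1.1 KO. In them the Y-linked list stood at 0, 303 and 274 CPM in the controls and 2.75 in the CaV1.1 KO. Its 2 calls came despite control 1, so a small adjusted p in this weighting does not measure the spread between controls. Such values are given as a description. Tnip1 was called in this weighting (log2 fold change -2.52) but was at 65.3, 63.1 and 64.3 CPM against 56.7 in the unthinned sums (-0.22).

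Tendon genes were mostly at lower levels in the CaV1.1 KO. Of 27 tendon list members tested, 17 were lower and 0 higher at an unadjusted p under 0.05, beside 4.71% and 4.06% of all genes. In 24 the CaV1.1 KO lay below all 3 controls, beside 23.3% of all genes. Their median log2 fold change was -0.82, against -0.01 over all genes tested, and -0.76 without the Nkx2-1 and Sftpc area. Summed over the list, the tendon transcripts made up 34884, 41842 and 52223 CPM in controls 1, 2 and 3 and 25162 in the CaV1.1 KO. In sums over a region, fewer tendon cells and less tendon RNA per cell cannot be told apart. The share of spots outside muscle above a section's cut on a score of 4 genes (Col12a1, Col11a1, Scx and Antxr1) was 70.0, 82.4 and 70.5% in the controls (95% exact binomial intervals 64.0 to 75.6, 77.0 to 86.9 and 60.3 to 79.4%) and 55.4% (50.1 to 60.6%) in the CaV1.1 KO. The intervals of control 3 and the CaV1.1 KO overlap, and they cover counting error only, since neighboring spots of 1 section are not replicates. The CaV1.1 KO share includes the Nkx2-1 and Sftpc area, where the score gene Col12a1 was at 88.9 CPM, against 254 outside the area. No share was taken without the area, and each section had its own cut, so a lower share of tendon spots is not established.

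Tnmd (chrX:133851008-133865577), which encodes tenomodulin, a membrane protein of mature tendon cells, was at 269.7, 222 and 545 CPM in the controls and at 15.1 in the CaV1.1 KO. The CaV1.1 KO value lay far below every control. Its log2 fold change was -4.52 ± 0.63 with an adjusted p of 0.139 in the sums, and -2.60 ± 0.38 when each spot counted alike. The CaV1.1 KO level was 71.9 CPM in its shallower spots (up to the median UMI count) and 12 in its deeper ones. In control 1 these levels were 748 and 205, in control 2 they were 307 and 193, and in control 3 they were 263 and 641, so the gap was present at both depths. In spots below the tendon cut the log2 fold change of Tnmd was -1.28, and the sums passed the test once control 1 or control 2 was left out. In the CaV1.1 KO, Sftpc was at 95.1 CPM below the tendon cut and 2.11 above it. The value of -1.28 thus sets spots of the Nkx2-1 and Sftpc area, among others, against control tissue. Above the cut Tnmd was at 336, 243 and 634 CPM in controls 1, 2 and 3. In the CaV1.1 KO it was at 14.6 there, no higher than below the cut. UMIs of Tnmd were seen in 90 of 363 CaV1.1 KO spots, against 185 of 257, 171 of 244 and 61 of 95 control spots, at the unequal depths given above.

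Thbs4 (chr13:92751586-92794818), a thrombospondin of the tendon and myotendinous matrix, was at 82.2, 139 and 224 CPM in the controls and 10.6 in the CaV1.1 KO. Its log2 fold change was -3.78 ± 0.61 (adjusted p = 0.207) in the sums and -2.85 ± 0.48 when each spot counted alike. C1qtnf3 (chr15:10952119-10980162), a secreted protein of the C1q and TNF related family that is no member of the tendon list and was chosen after its values were seen, was at 224, 323 and 325 CPM against 35.6. Its control values were the closest together of the 3 genes. The log2 fold change was -3.06 ± 0.28 (adjusted p = 0.095) in the sums and -3.0 ± 0.40 by spot. It lay at -2.88 without the Nkx2-1 and Sftpc area and at -3.49 without spots next to muscle.

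Other matrix members of the tendon list followed with smaller differences. The matrix glycoprotein Tnc (tenascin C) was at 479.6, 694 and 321 CPM in the controls and 149 in the CaV1.1 KO. Postn (periostin) was at 1266, 1725 and 1839 against 528 CPM. The fibril-associated collagen Col12a1 was at 422, 597 and 795 against 217. All 3 CaV1.1 KO values lay below the controls, and each gene missed the test in the sums. When each spot counted alike the log2 fold changes were -2.06, -1.20 and -1.69. The p-values of that weighting do not measure the spread between controls. Col1a1, the main chain of type I collagen, was at 12141, 13589 and 17780.5 CPM against 7861, with a log2 fold change of -0.92 in the sums and -0.54 by spot (adjusted p = 0.0338). Col3a1, the other member of highest level, was at 8539, 11356 and 12571 against 7201 CPM (-0.63, adjusted p = 0.561). The small proteoglycan gene Aspn had 110.1, 202 and 229 CPM against 27.8, a log2 fold change of -2.71 ± 0.44 in the sums that did not pass by spot (-1.25 ± 0.40, adjusted p = 0.24).

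The transcription factors of the tendon lineage differed less than Tnmd and Thbs4, but in the sums not clearly less than the tendon list as a whole (median -0.82). Scx was at 92.2, 113 and 182 CPM in the controls and 73.0 in the CaV1.1 KO, a log2 fold change of -0.80 ± 0.35 with an adjusted p of 0.587, and -0.44 ± 0.37 by spot. Mkx was at 18.1, 17.9 and 29.6 CPM against 8.93, with -1.25 ± 0.36 in the sums (adjusted p = 0.411) and -0.08 ± 0.98 by spot. The by-spot value of Mkx is imprecise, as its SE of 0.98 shows. As a mean of CPM over unthinned spots, Mkx was at 25.7, 20.8 and 26.8 in controls 1, 2 and 3 and at 15.9 in the CaV1.1 KO. In the sums the CaV1.1 KO lay below all controls for both genes, and neither passed a test in either weighting.

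**Figure D2:**
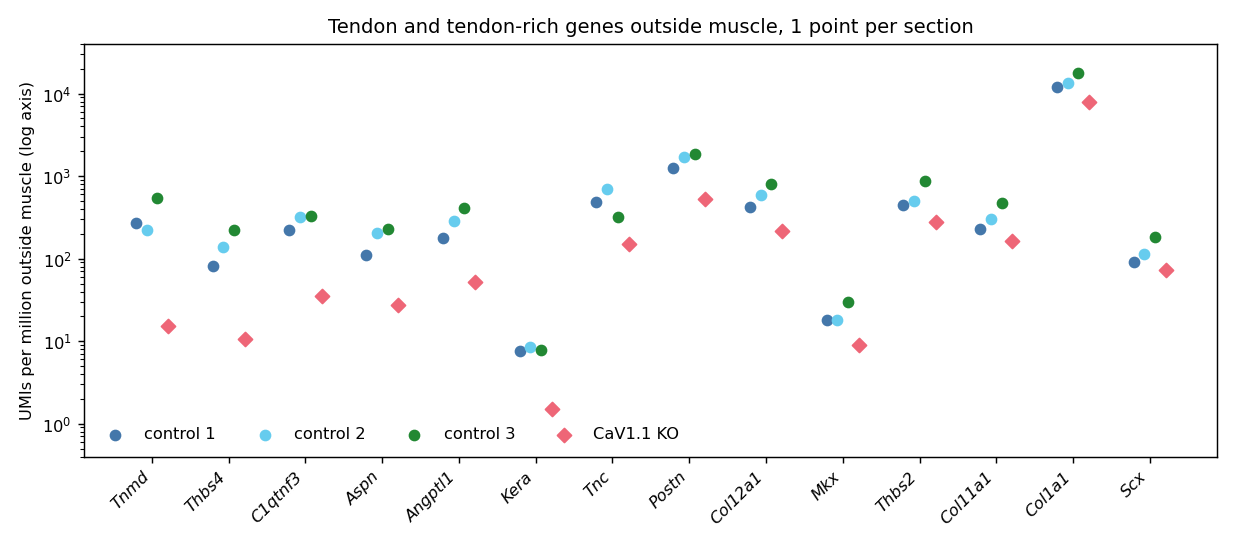
Level of tendon list genes, with C1qtnf3 and Angptl1, in CPM over the spots outside muscle on a log axis, with 1 point for each control section and a diamond for the CaV1.1 KO. The CaV1.1 KO lies below every control in each gene shown, by most in Tnmd (15.1 against 222 to 545 CPM) and by least in Scx (73.0 against 92.2 to 182).

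**Figure D3:**
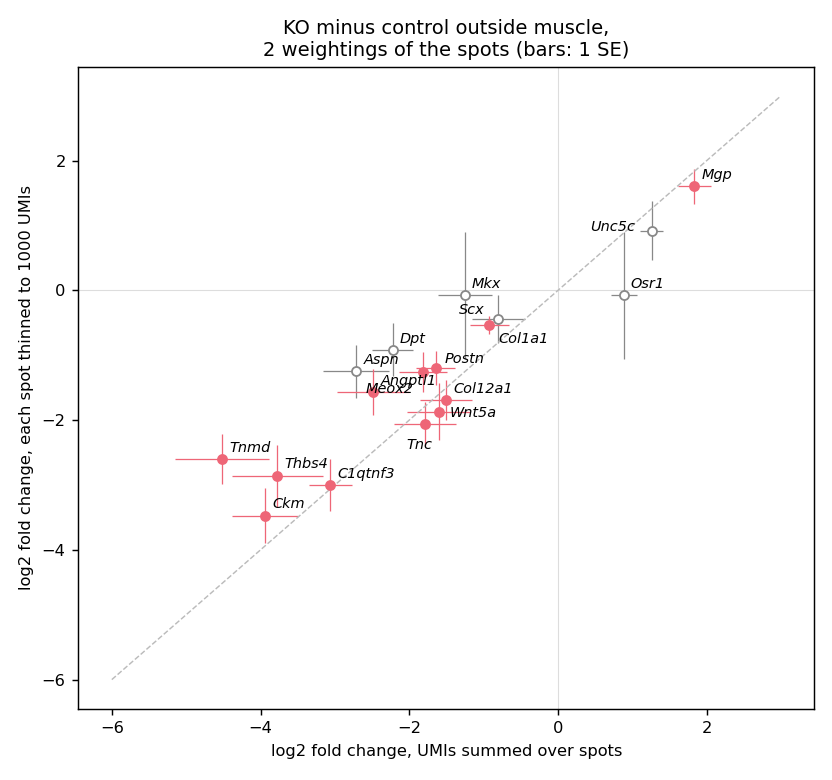
Log2 fold change of the CaV1.1 KO against the controls for selected genes, with UMIs summed over spots on the x axis and with each spot thinned to 1000 UMIs on the y axis. Bars are 1 SE, filled points passed an adjusted p of 0.05 on the y axis fit, and the dashed line marks equal values, above which lie Tnmd (-4.52 and -2.60), Dpt (-2.22 and -0.92) and Mkx (-1.25 and -0.08). The p-values of the y axis fit do not measure the spread between controls.

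Genes that build and cross-link matrix were lower in smaller numbers. Of 19 genes of cross-linking and collagen processing, 6 were lower and 0 higher at an unadjusted p under 0.05, with a median of -0.35 (4 lower, 0 higher and -0.19 without the Nkx2-1 and Sftpc area). Loxl2, a lysyl oxidase relative, was at 238, 352 and 255 CPM in the controls and 137 in the CaV1.1 KO (log2 fold change -1.08, adjusted p = 0.332). Adamts2, which trims procollagen, was at 177, 239 and 269 against 118 CPM (-0.98, adjusted p = 0.384). Lox itself was at 48.7, 81.5 and 69.5 against 53.2 CPM, within the control range. The most abundant members were the collagen chaperone Serpinh1 (1413, 1429 and 1535 against 1234 CPM) and Pcolce, an enhancer of procollagen cleavage (668, 719 and 906 against 502). Of 14 genes of matrix breakdown, 3 were lower and 0 higher with and without the area, while the abundant Mmp2 and Adamts9 lay within the control range (383 against 351 to 459 CPM and 552 against 531 to 601).

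The growth factor signals that act on tendon cells were mixed. Of 17 TGF-β ligands and targets, 4 were lower and 1 higher, with a median of -0.15 (3 and 1 without the area). Tgfb2 was at 387, 388 and 316 CPM in the controls and 443 in the CaV1.1 KO (log2 fold change 0.24, adjusted p = 0.74), and Tgfb3 at 295, 380.3 and 308 against 198 (-0.77, adjusted p = 0.365). The matricellular targets Ccn1 and Ccn2 were at 69.6, 112 and 60.0 against 52.9 CPM and at 34.1, 45.8 and 37.4 against 25.1. These 2 lay just below their controls and did not pass (adjusted p of 0.634 and 0.46). Egr1, a transcription factor that responds to mechanical load, was at 18.1, 11.8 and 11.3 against 19.9 CPM (0.45, adjusted p = 0.744). Of 17 immediate early genes, 6 were lower and 0 higher, with a median of -0.57 (5 and 0 without the area). Jun was at 189, 252 and 184 against 133 CPM and was the only one of them called when each spot counted alike (-1.44 ± 0.36, adjusted p = 0.0224). That p-value does not measure the spread between controls. Klf6, the next most abundant, was at 90.9, 129.9 and 103 against 71.9.

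Among 18 genes of connective tissue fibroblasts, 4 were lower and 1 higher at an unadjusted p under 0.05, with a median of -0.18. Without the Nkx2-1 and Sftpc area 5 were lower and 2 higher, with a median of -0.04. Pdgfra, the receptor that marks these cells, was at 292, 275 and 293 CPM in the controls and 284 in the CaV1.1 KO (log2 fold change -0.05 ± 0.13). Tcf7l2, a marker of muscle connective tissue, was at 62.9, 83.1 and 69.5 against 53.9 CPM (adjusted p = 0.578), and Hgf, a ligand that guides muscle precursors, at 12.9, 9.97 and 11.3 against 15.8 (adjusted p = 0.718). Osr1, a transcription factor of that tissue, was at 27.6, 29.2 and 33.9 against 56.0 CPM, with 0.88 ± 0.17 in the sums (adjusted p = 0.245) and -0.07 ± 0.98 by spot. The lower ones were led by Dpt, which encodes the matrix protein dermatopontin (90.9, 134 and 135 against 26.0 CPM; -2.22 ± 0.28, adjusted p = 0.095), and Meox2 (285, 329 and 488 against 106). Only Meox2 of the list was called by spot (-1.25 ± 0.31, adjusted p = 0.0175), where p-values do not measure the spread between controls. Dlk1, the most abundant member of the list, was at 3302, 3883 and 3591 against 2665 CPM (adjusted p = 0.527 in the sums).

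Mgp (chr6:136872435-136875823), which encodes matrix Gla protein, an inhibitor of calcification made by cartilage and vessel walls, stood on the high side and was chosen after its values were seen. It was at 288, 189 and 242 CPM in the controls and 879 in the CaV1.1 KO. Its log2 fold change was 1.84 ± 0.22 (adjusted p = 0.095) in the sums, 1.92 without the Nkx2-1 and Sftpc area and 1.60 ± 0.27 by spot. The CaV1.1 KO level was 514 CPM in its shallower and 899 in its deeper spots, against 170 to 337 at either depth in the controls. Arhgdib, a gene best known from blood cells, was at 105, 111 and 103 against 190.2 CPM and was also called by spot (1.19 ± 0.32). By-spot calls do not measure the spread between controls.

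Unc5c, a netrin receptor, was at 35.4, 40.0 and 38.2 CPM in the controls and 93.3 in the CaV1.1 KO, with 1.26 ± 0.15 in the sums (adjusted p = 0.095) and 1.27 without the area. By spot it was 0.92 ± 0.45 (adjusted p = 0.779). Pde5a, a cGMP phosphodiesterase, was at 87.0, 79.0 and 80.0 against 180.4 CPM (1.1 ± 0.13, adjusted p = 0.095). Other high values belonged to the Nkx2-1 and Sftpc area. Thbs1, a thrombospondin, was at 121, 233 and 141 against 427 CPM (1.32), but at 1159 CPM within the area and 216 outside it, which left 0.35. Wnt2, a ligand of lung mesenchyme, went from 3.14 to 0.60, Snai2 from 1.01 to 0.40 and Etv5 from 0.72 to 0.16 when the area was left out.

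The retinoic acid pathway had 4 of 13 members higher and 0 lower, beside 4.06% and 4.71% of all genes, and 6 higher without the area. Aldh1a2, the enzyme that makes retinoic acid in mesothelium and mesenchyme, was at 51.0, 61.8 and 38.2 CPM in the controls and 116 in the CaV1.1 KO (log2 fold change 1.11 ± 0.22, adjusted p = 0.251; 0.95 ± 0.39 by spot). Crabp2, which encodes a carrier of retinoic acid, was at 120.1, 172 and 170.4 against 120.2 CPM. Aldh1a2 lay above every control and Crabp2 did not. Of 14 Wnt genes, 2 were higher and 3 lower, and without the area 0 and 3. The lower ones were Wnt5a (105, 205 and 107 against 47.9 CPM; -1.60 ± 0.42, adjusted p = 0.396 in the sums and 0.0084 by spot) and the Dickkopf family genes Dkk2 (51.5, 64.2 and 81.7 against 25.9) and Dkk3 (32.0, 44.3 and 64.3 against 17.6). The by-spot p-value of Wnt5a does not measure the spread between controls. The abundant Wnt inhibitors Sfrp1 and Sfrp2 were at 339 CPM each in the CaV1.1 KO, within their control ranges of 253 to 347 and 198 to 370.4.

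Of 14 FGF genes, 2 were higher and 5 lower, and without the area 0 and 3. Spry1, a feedback inhibitor of FGF signals, was at 135, 145 and 151 CPM in the controls and 78.8 in the CaV1.1 KO (log2 fold change -0.90 ± 0.14, adjusted p = 0.198; -0.53 ± 0.37 by spot). Fgfr1 was at 382, 473 and 551 against 320.4 CPM. The ligands Fgf7 (34.9, 45.9 and 40.9 against 21.1) and Fgf10 (13.7, 13.2 and 17.4 against 30.3) lay on opposite sides of their controls. Fgf10 stood at 1.05 with and 0.56 without the area. Among 18 axon guidance genes, 2 were higher and 1 lower, and Slit2, a repellent for axons, was at 107, 167 and 84.3 against 176 CPM (0.49 ± 0.32, adjusted p = 0.721). The most abundant members, Robo1 (116, 138 and 162 against 148 CPM) and Sema3a (120.4, 160.5 and 178 against 139.8), lay within their controls. Of 15 BMP genes none was past an unadjusted p of 0.05 in edgeR (DESeq2 called 0), and without the area 3 were higher and 0 lower, with Id1 at 114, 117 and 104 against 141 CPM and Id3 at 252, 271 and 231 against 270.4. Of 16 insulin-like growth factor and imprinted growth genes, 1 was higher and 5 lower (1 and 4 without the area), and the growth factor gene Igf2 was at 3104, 3658 and 3466 against 2751 CPM (-0.35, adjusted p = 0.655).

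Histone transcripts stood on the high side, outside muscle and in muscle. In muscle spots the clustered histones summed to 13360, 14280 and 13016 CPM in the controls and 16715 in the CaV1.1 KO. Their median there was 0.23, with 2 of 35 called higher, beside 0.817% of all genes. Outside muscle, of 35 clustered histone genes tested, 20 were higher and 0 lower at an unadjusted p under 0.05. In 32 of them the CaV1.1 KO lay above all 3 controls outside muscle, beside 32.9% of all genes. The median outside muscle was 0.54, and without the area 11 were higher with a median of 0.40. Their sum was 12676, 11820 and 11428 CPM in the controls and 17366 in the CaV1.1 KO, and 12977, 11906 and 11432 against 16242 when each spot counted alike. Hist1h3d, a histone H3 gene, was at 1123, 1045 and 872 against 1813 CPM (0.80 ± 0.18, adjusted p = 0.324), Hist1h3b at 1390.3, 1260.2 and 1293 against 1942, and Hist1h1c, a linker histone, at 1739.9, 1797 and 1756 against 2109. Clustered histone genes are near copies of each other, so which of them a probe counted is uncertain. All 17 cell cycle genes lay above the controls, 4 of them at an unadjusted p under 0.05 and 1 without the area, with a median of 0.20. The proliferation marker Mki67 was at 497, 499 and 478 against 552 CPM (0.13 ± 0.14) and the cyclin Ccna2 at 346, 330.2 and 312 against 441 (0.38 ± 0.14, adjusted p = 0.489).

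Muscle transcripts outside the rule, 32 in number, had 17 lower and 0 higher at an unadjusted p under 0.05 (16 and 0 without the area), a median of -0.79 and sums of 17828, 10455 and 12850 CPM against 8322. The spot rule fixed the low muscle level of these spots, and the cut was lowest in the CaV1.1 KO, so these counts are a description. Spots scored a median of 2.21, 1.68 and 1.79 on the muscle genes in the controls and 1.30 in the CaV1.1 KO. When spots next to muscle were left out, the tendon list members Tnmd (-4.71), Postn (-1.93) and Col12a1 (-1.83) were still lower. No median of the tendon list was taken in that setting. Ckm, the muscle creatine kinase, was the lowest of the muscle list at 392, 216 and 226 against 18.8 CPM (-3.94 ± 0.45, adjusted p = 0.095) and was as low within muscle (-3.54 ± 0.28, adjusted p = 0.0077).

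Mesothelial genes had 1 of 13 higher and 0 lower, the 1 being Aldh1a2, with Wt1 at 86.4, 119 and 87.8 against 86.1 CPM and Krt7 at 85.9, 148 and 74.8 against 174. Endothelial genes had 1 of 15 higher and 0 lower with a median of 0.17, and 0 higher and 2 lower with a median of -0.06 without the area, with the junction gene Cdh5 at 164, 120.5 and 129.5 against 114 CPM and Egfl7 at 111, 97.9 and 77.4 against 113.5. Macrophage genes had 2 of 13 higher (5 without the area), with C1qa at 145, 135 and 124 against 132 CPM and C1qc at 130.2, 133 and 102 against 143. These lists held no member called outside muscle in edgeR. Surface and gut epithelium had 4 of 7 higher, with a median of 2.99, and 0 higher with a median of 0.30 without the Nkx2-1 and Sftpc area. Nkx2-1 and Sftpc are themselves in this list, so part of that drop follows from how the area was selected. Erythroid (10) and hepatocyte (9) genes had none past an unadjusted p of 0.05, with sums that spread widely between the controls. Of the smooth muscle and pericyte list 2 of 11 were higher, with the actin Acta2 at 315, 223 and 199 against 237 CPM, and of the cartilage and bone list 1 of 14 was higher and 2 lower (0 and 1 without the area), with Sox9 at 61.5, 171 and 69.5 against 122.

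The remaining lists held few members past an unadjusted p of 0.05. Schwann cell genes had 0 of 10 (1 higher without the area), with the receptor Erbb3 at 101, 53.2 and 66.9 against 85.0 CPM. Lymphatic endothelium had 1 of 6 higher (0 without the area), with Pdpn at 59.0, 63.8 and 68.7 against 58.6. Adipocyte genes had 1 of 6 higher and 2 lower (1 and 1 without the area), with the lipase Lpl at 98.7, 82.6 and 93.9 against 60.3. Interferon response genes had 2 of 12 higher and 1 lower, hypoxia and glycolysis genes 1 of 13 higher and 0 lower (0 and 1 without the area), and heat shock and unfolded protein genes 1 of 14 higher and 2 lower. The chaperone Hspa5, the most abundant of the last list, was at 1240.4, 1137 and 1017 against 1052 CPM.

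**Figure D4:**
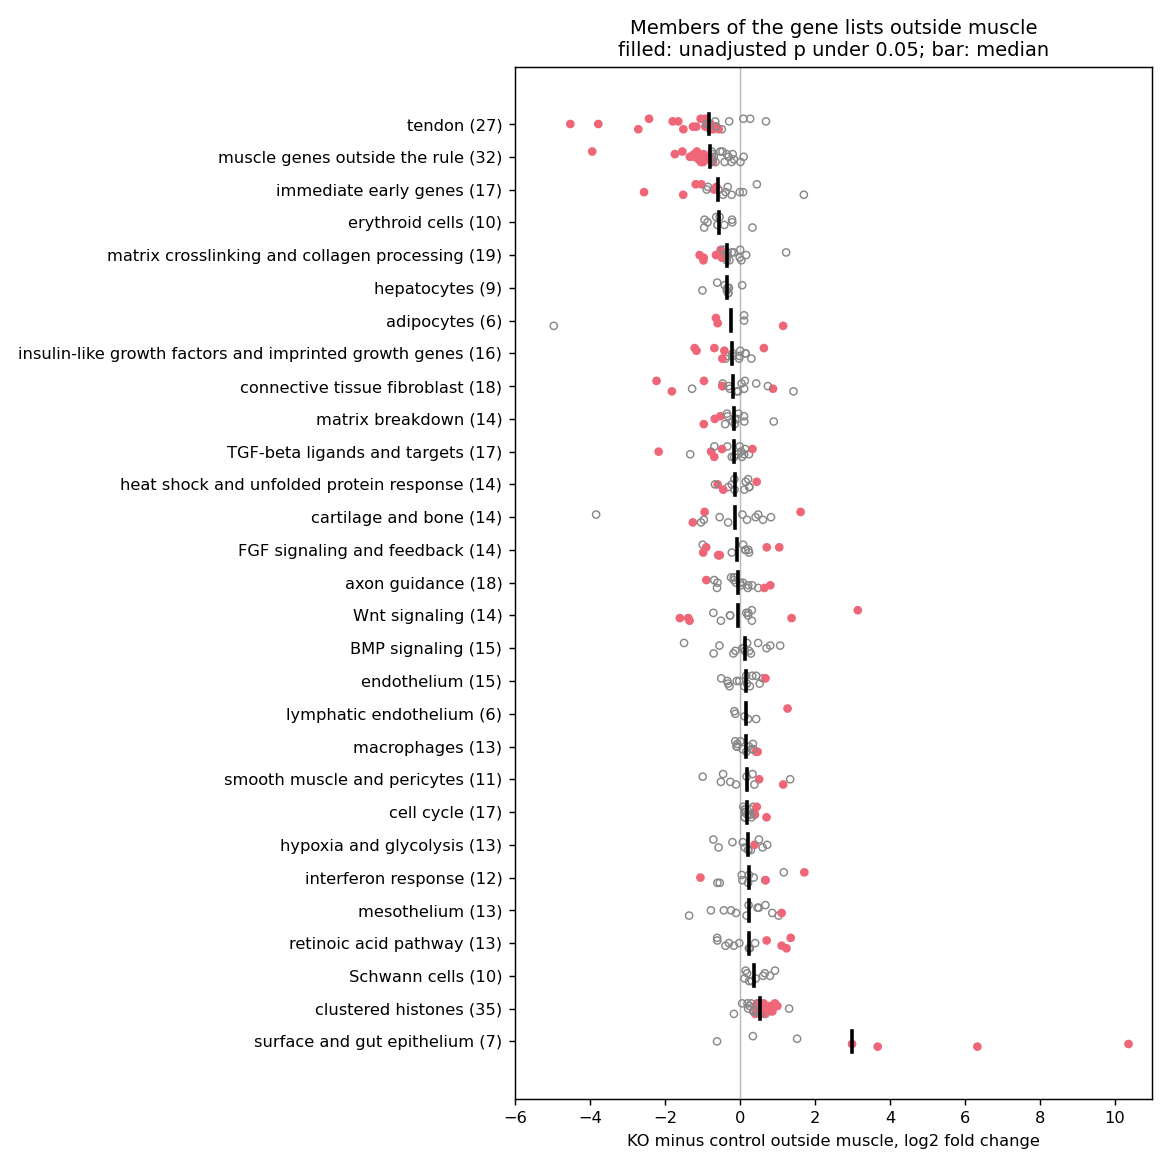
Log2 fold change of the CaV1.1 KO against the controls outside muscle for the members tested of 29 gene lists, the number in parentheses, with a bar at the median and filled points at an unadjusted p under 0.05. The tendon list (median -0.82) and the muscle genes outside the rule (-0.79) lie lowest and the surface and gut epithelium (2.99) highest, and the adrenal cortex and Y-linked lists, which separate single controls, are not drawn.

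Muscle spots of the same sections were fitted alike. There 115 genes (0.817%) were called higher and 231 (1.64%) lower of 14077. Tnmd was at 47.5, 55.6 and 66 CPM in control muscle and 7.90 in the CaV1.1 KO (log2 fold change -2.85 ± 0.20, adjusted p = 0.0077), Thbs4 at 52.0, 75.7 and 56.5 against 13.4 (-2.21 ± 0.23, adjusted p = 0.00991) and C1qtnf3 at 81.1, 86.0 and 85.8 against 30.4 (-1.49 ± 0.10, adjusted p = 0.0077). Of the 28 genes called outside muscle with each spot counted alike, 14 were called lower in muscle too. Those 28 came from 7497 genes with enough counts, and their p-values do not measure the spread between controls. No share among the 7497 was taken, so this overlap is a description only. The sections shared these embryos and a 55 µm spot can hold both tissues, so the 2 regions were not independent. Of the macrophage list, 7 members rose in muscle, where Csf1r, the receptor for their growth factor, was at 16, 17.5 and 17.9 CPM against 33.7 (0.96 ± 0.11, adjusted p = 0.0119), while outside muscle it was at 37.1, 39.8 and 33.0 against 52.9 (0.47 ± 0.17, adjusted p = 0.494).

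The difference between the regions was tested itself, with the section as a block. Of 14492 genes, 4 (0.0276%) had a CaV1.1 KO difference that was higher outside muscle than in it and 3 (0.0207%) one that was lower. With a muscle cut common to all sections these counts were 0 and 0, so the calls depend on each section's own cut. They were not repeated without the Nkx2-1 and Sftpc area. Mgp was at 131, 105 and 139.8 CPM in control muscle and 193 in the CaV1.1 KO muscle, and its difference was larger outside by 1.23 ± 0.13 on the log2 scale (adjusted p = 0.04). Wnt5a was at 33.0, 66.7 and 34.9 against 36.4 CPM in muscle, and its difference was lower outside (-1.25 ± 0.12, adjusted p = 0.0396). Rspo3, which encodes a Wnt-potentiating ligand, was higher in muscle (21.4, 29.8 and 30.9 against 72.5 CPM; 1.39 ± 0.17, adjusted p = 0.0154) and near its controls outside (105, 128 and 138 against 147), a difference of -1.18 ± 0.12 (adjusted p = 0.0396). For Tnmd the difference was -1.56 ± 0.44 and for Thbs4 -1.44 ± 0.51, neither of which passed (adjusted p of 0.328 and 0.456).

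At E18.5 the same rule gave 448 spots outside muscle in 1 CaV1.1 KO section and 340 and 326 in 2 controls. In a fit over all 8 sections, 66 genes (0.454%) were called higher and 71 (0.489%) lower of 14524. Of 27 tendon list members, 8 were called lower and 0 higher: Tnmd, Thbs4, Postn, Aspn, Scx, Kera, Comp and Dcn. Tnmd was at 962 and 746 CPM in the controls and 71.8 in the CaV1.1 KO (log2 fold change -3.77 ± 0.58, adjusted p = 0.0404). Scx was at 122 and 176 against 30 CPM (-2.50 ± 0.41, adjusted p = 0.0453). Kera, the proteoglycan keratocan, was at 114 and 139 against 6.97 CPM (-4.37 ± 0.23, adjusted p = 0.00204), and had been at 7.69, 8.46 and 7.82 against 1.52 at E14.5.

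C1qtnf3, at 991 and 962 CPM in the E18.5 controls and 102 in the CaV1.1 KO, was called lower there as well (-3.45 ± 0.30, adjusted p = 0.00769). Postn was at 3275 and 3084 against 724 CPM (-2.33 ± 0.29, adjusted p = 0.0218). Mgp was at 955 and 1300.4 against 1397 CPM at E18.5 (0.12 ± 0.29), and its difference between the stages did not pass (adjusted p = 0.282). Of the 28 genes called by spot at E14.5, 6 were called in the same direction at E18.5: Tnmd, Thbs4, C1qtnf3, Postn, Angptl2 and Arhgdib. This overlap too is a description only, since the 28 came from 7497 genes and from p-values that do not measure the spread between controls. No gene's CaV1.1 KO difference was called between E14.5 and E18.5 in edgeR (0 of 14524, 0%), where 1458 were at an unadjusted p under 0.05 and DESeq2 called 89. The E18.5 embryos were other animals, 1 of them a CaV1.1 KO. Over their whole sections the Y-linked Ddx3y was at 46.2 and 42.3 CPM in the E18.5 controls and at 0 in the E18.5 CaV1.1 KO. At that stage genotype thus cannot be told apart from the presence of Y-linked transcripts.

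**Figure D5:**
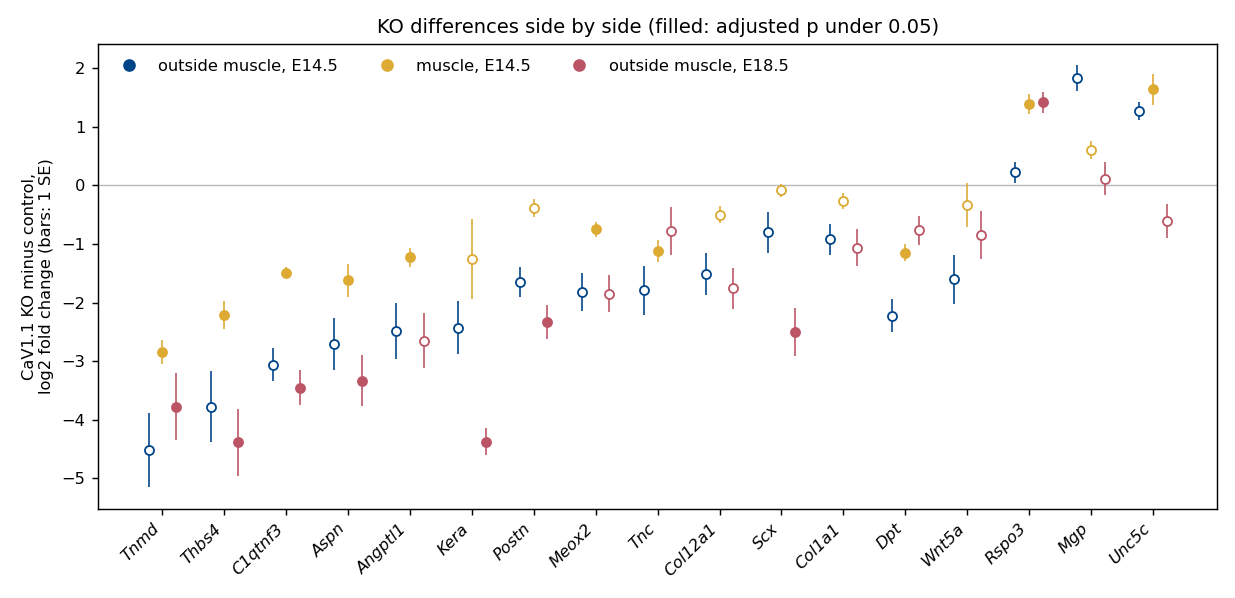
Log2 fold change of the CaV1.1 KO against the controls for selected genes outside muscle at E14.5, in muscle at E14.5 and outside muscle at E18.5, with bars of 1 SE and filled points at an adjusted p under 0.05. Tnmd, Thbs4 and C1qtnf3 lie below 0 in all 3, Mgp is highest outside muscle at E14.5 (1.84), and Rspo3 is high in muscle (1.39) and at E18.5 (1.42) and near 0 outside muscle at E14.5 (0.22).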

How the data were processed

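Spatial RNA counts came from 8 mouse diaphragm sections, 4 of them at E14.5. The deposited counts are UMI counts per gene and spot, which the authors made with Space Ranger (2.0.0 for E14.5 controls 1 and 2 and the CaV1.1 KO, 2.0.1 for E14.5 control 3 and the E18.5 sections, per the file headers) on mm10 with the probe set for mouse FFPE tissue. From these, spots outside muscle were found by the rule in Python 3.11.15 with scikit-image 0.26.0, and their UMIs were summed per section. Genes were kept by edgeR's expression filter, scaled by TMM (factors 0.9919 to 1.02) and tested by its quasi-likelihood test (edgeR 4.0.16, R 4.3.3) with Benjamini-Hochberg adjustment, called at an adjusted p under 0.05. The main fit used the 4 E14.5 sums, the comparison with muscle used 2 sums a section with the section as a block, and the stages were compared over 8 sums. Standard errors are the log2 fold change divided by the root of the F statistic. CPM is UMIs scaled to a sum of 1000000 over the summed spots. DESeq2 1.42.0 was an alternative. The main fit was tested on simulated counts, and the other fits were not.

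The named genes were Cacna1s, called genes of large change (none was called in the sums), the 2 members of highest mean CPM of each list, and 18 fixed genes. Genes named beyond this rule (among them C1qtnf3, Dpt, Aspn, Mgp, Unc5c, Thbs1, Pde5a, Arhgdib, Nkx2-1, Loxl2 and Kera) were chosen after their values were seen. The spots, lists and rules were chosen with earlier results of these data known. Thinning of each spot, the largest piece of tissue and leaving out the Nkx2-1 and Sftpc area were added after the data were seen. Positions are of RefSeq genes on GRCm38 (mm10). Intervals and floors cover counting error only. Mitochondrially encoded genes were not analysed here. Doublets do not apply to spots. Controls of one stage were separate sections, and no p-value covers a spread between CaV1.1 KO embryos. The control spread of a gene was estimated partly from other genes in edgeR (2 residual and a median of 6.393 total degrees of freedom in the main fit). In the thinned sums the p-values do not measure that spread, as the Y-linked calls show. One gene that the rule names is not reported here.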

Additional observations from a re-analysis of the deposited data

Results flagged for a closer look

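For 7 genes the CaV1.1 KO difference was not the same outside muscle and in muscle, by a test of that difference in edgeR at an adjusted p under 0.05. The values are the log2 difference outside muscle minus that in muscle. On the high side, 4 genes were called: Ppp1r14a, an inhibitor of myosin phosphatase, at 1.34 (adjusted p = 0.0453), Prss23, a serine protease, at 1.25 (0.0453), Jag1, a Notch ligand, at 1.24 (0.0453) and Mgp at 1.23 (0.04). On the low side, 3 were called: Hoxd8, a homeobox gene, at -1.56 (0.0453), Wnt5a at -1.25 (0.0396) and Rspo3 at -1.18 (0.0396).

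Hoxd8 was at 42.1, 40.9 and 40.9 CPM in the controls and 15.6 in the CaV1.1 KO outside muscle, and at 37.1, 46.8 and 42.0 against 46.3 in muscle. Jag1 was at 54.2, 55.7 and 47.8 against 75.3 CPM outside and at 46.0, 53.3 and 53.4 against 29.7 in muscle, so its CaV1.1 KO value lay on opposite sides of the controls in the 2 regions. Prss23 did so too, at 54.2, 58.7 and 44.3 against 89.8 CPM outside and at 42.7, 44.2 and 42.1 against 30 in muscle. Ppp1r14a was at 29.4, 20.8 and 19.1 against 61.6 CPM outside and within its controls in muscle, and its log2 fold change outside went from 1.33 to 0.62 without the Nkx2-1 and Sftpc area. With a muscle cut common to all sections the count of such genes was 0. The test between regions was not repeated without the Nkx2-1 and Sftpc area.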

How the results depend on the processing

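No paired analysis was possible because the CaV1.1 KO has 1 section at each stage, and sections with the same number share no animal. Outside muscle, where edgeR called 0 genes, DESeq2 called 43 higher and 113 lower, no filter on low counts 25 and 30, all 8 sections 6 and 3, the stricter liver and adrenal limit 30 and 32 (4 and 6 when the Nkx2-1 and Sftpc area was also left out), spots below the tendon cut 7 and 1, and spots thinned alike 2 and 26. A lower muscle score, no spots next to muscle and the largest piece each gave 1 higher, and a common muscle cut and sums thinned to the smallest each gave 1 lower. Leaving out 1 control gave 0 to 242 higher and 0 to 365 lower genes, the highest without control 1 (9 and 6 without control 2). Without TMM, 714 genes were higher and 561 lower at an unadjusted p under 0.05, against 559 and 649.

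For the difference between regions (4 higher, 3 lower), DESeq2 called 10 and 22, no filter 111 and 230, and a common muscle cut 0 and 0. Leaving out 1 control gave 0 to 81 higher (75 without control 2) and 0 to 216 lower genes (120 without control 1). For the stages (0 called), DESeq2 called 89, no filter 39, and leaving out 1 control 0 to 15, the most without E14.5 control 1. The causes were not tested. Of 218 genes listed, 171 kept their sign in every alternative and 47 did not, Scx and Mkx among them. Depth limits low genes most, control 3 having the fewest UMIs.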
